A study of Rattus norvegicus with 6 samples.

Results

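Heat shock proteins and chaperones were described in cultured rat testis cells of 21-day-old and 9-day-old animals. The members were the genes whose symbols begin with Hspa, Hspb, Hspd, Hspe, Hsph, Hsp90 or Dnaj, or with Bag or Cct and a number. By this rule 78 of the 14506 genes that the array measured through a probe set naming a single gene were members. RefSeq lists 92 protein-coding rat genes with such symbols, and the others were not analysed here. Among them were Hspa1a, Hspa1b and Hspa1l, the classical inducible HSP70 genes and their testis relative, whose 1 probe set names several genes.

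RNA came from primary cultures labelled Sertoli cells, made from digested testes of rats aged 21 days (3 arrays) and 9 days (3 arrays), with no other genotype, strain or treatment given. Both ages were grown in DMEM/F12 with 10% fetal bovine serum and extracted with Trizol, and each age carries the sample numbers 1 to 3. Whether the samples of an age came from separate animals or cultures is not stated in the labels. The p-values therefore reflect the spread among these 6 samples alone, and that spread may be technical. The study looked for genes of proliferation, cell cycle and cell death that differ between the ages.

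Chaperones hold unfolded proteins and help them fold. HSP70 proteins bind short exposed stretches of a client in cycles of ATP hydrolysis, J-domain proteins (Dnaj) deliver clients and start the hydrolysis, and nucleotide exchange factors such as the BAG and HSP110 proteins release them. HSP90 finishes signalling clients such as steroid receptors and kinases, chaperonins enclose whole proteins in a barrel, and small heat shock proteins hold proteins that would aggregate. Heat shock factor 1 induces many of these genes under stress through repeated GAA units in their promoters, and the unfolded protein response induces those of the endoplasmic reticulum. Several members work in male germ cells, whose support is the task of Sertoli cells.

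Promoters were examined because members of these pathways share known control elements. RefSeq's table for the rat build GRCr8 gave a window of 250 bases before to 50 bases after the gene start for 65 of the 78 members and for 11951 of all genes on the array. The 3 stretches that follow, the 250 bases before the start, are shown for members that carry the longer heat shock element, with every stretch matching GAANNTTC or TTCNNGAA in capitals. Hspe1 was chosen for the promoter it shares with Hspd1, Hspa8 for the brightest member and Hsph1 for HSP110.
Hspe1, chr9:64084077-64084326, plus strand: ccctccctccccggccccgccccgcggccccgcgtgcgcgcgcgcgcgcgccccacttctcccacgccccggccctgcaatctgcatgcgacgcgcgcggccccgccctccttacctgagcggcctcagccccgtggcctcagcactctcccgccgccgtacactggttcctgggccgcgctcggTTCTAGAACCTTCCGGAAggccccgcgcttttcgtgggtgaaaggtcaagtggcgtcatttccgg
Hspa8, chr8:50080264-50080513, plus strand: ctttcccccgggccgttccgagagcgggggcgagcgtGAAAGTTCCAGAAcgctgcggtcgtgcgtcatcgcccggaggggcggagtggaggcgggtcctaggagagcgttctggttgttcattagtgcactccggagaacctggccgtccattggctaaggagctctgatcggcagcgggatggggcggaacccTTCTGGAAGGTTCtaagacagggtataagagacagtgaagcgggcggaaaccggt
Hsph1, chr12:10427118-10427367, plus strand: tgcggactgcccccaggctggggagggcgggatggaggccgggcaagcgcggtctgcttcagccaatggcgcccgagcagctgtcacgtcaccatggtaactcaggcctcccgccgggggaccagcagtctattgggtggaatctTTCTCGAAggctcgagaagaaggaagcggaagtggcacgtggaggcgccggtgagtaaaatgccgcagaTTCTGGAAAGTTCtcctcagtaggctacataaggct

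In Hspe1 the elements overlap in 1 run, from 65 to 48 bases before the start. Hspd1 and Hspe1, which encode the barrel and the lid of the mitochondrial chaperonin, lie head to head on chromosome 9 with 289 bases between their starts, so this run belongs to the promoter of both. Hspa8 holds 2 such runs, and Hsph1 holds 1 run beside the start and a lone pair farther away. The longer element, GAANNTTC extended by the unit NNGAA and read on both strands, was found in the windows of 6 members (Cct4, Dnaja1, Hspa8, Hspd1, Hspe1 and Hsph1), which is 9.23% of 65, against 64 of the 11951 array genes. Hspd1 and Hspe1 both count here through the run they share. Either of the shorter elements GAANNTTC and TTCNNGAA, which lie within the longer one, was found in 20 members (30.8%), against 13.2% of array genes.

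A second set is shown for the endoplasmic reticulum, with the ER stress element in capitals on either strand (CCAAT, then 9 bases of any kind, then CCACG). These are the 3 members whose windows hold it, and 15 of the 11951 array genes hold it in all.
Hspa5, chr3:38452766-38453015, plus strand: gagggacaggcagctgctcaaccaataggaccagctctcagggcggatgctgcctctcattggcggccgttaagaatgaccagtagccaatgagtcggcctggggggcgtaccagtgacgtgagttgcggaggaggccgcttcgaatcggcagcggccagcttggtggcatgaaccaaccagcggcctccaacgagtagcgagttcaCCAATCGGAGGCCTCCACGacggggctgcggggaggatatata
Hsp90b1, chr7:23012294-23012543, minus strand: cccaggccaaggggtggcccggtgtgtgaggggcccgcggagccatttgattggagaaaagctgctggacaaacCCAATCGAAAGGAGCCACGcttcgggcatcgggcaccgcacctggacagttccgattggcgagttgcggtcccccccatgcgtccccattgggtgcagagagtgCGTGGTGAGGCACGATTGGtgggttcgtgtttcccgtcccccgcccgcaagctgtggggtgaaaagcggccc
Dnajc3, chr15:102432417-102432666, plus strand: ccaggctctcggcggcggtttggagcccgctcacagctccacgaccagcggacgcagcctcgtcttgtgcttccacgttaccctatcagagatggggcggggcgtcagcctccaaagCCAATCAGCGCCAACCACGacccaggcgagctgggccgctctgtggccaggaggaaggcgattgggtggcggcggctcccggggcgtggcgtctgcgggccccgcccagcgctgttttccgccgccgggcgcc

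Hspa5 and Dnajc3 each hold the element once, and Hsp90b1 holds it on both strands. Hspa5 is BiP, the HSP70 of the endoplasmic reticulum, Hsp90b1 is its HSP90 (GRP94), and Dnajc3 is a co-chaperone of BiP. Of the more general motifs, the CCAAT box CCAAT, which is part of the ER stress element, was present in 44.6% of members and 38.98% of array genes. The GC box GGGCGG was present in 73.8% of members and 50.8% of array genes, and the TATA box TATAAA in 10.8% of members and 12.0% of array genes. A match describes these letters and does not show that a factor binds.

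All values that follow are the deposited log2 signals, and each difference is 21 days minus 9 days. Array medians lay between 3.78 and 3.87, and 11 of the 78 members averaged below the lowest of them. Number 3 differed from numbers 1 and 2 in both age groups. The 11 measured smooth muscle and peritubular cell markers averaged 1.44 higher on number 3 than on numbers 1 and 2 at 21 days, and 1.26 higher at 9 days, and all 11 were higher on number 3 at both ages. Among Sertoli cell markers, 18 of 22 were measured and 7 of these lay below the array medians, while Wt1, Gata4 and Clu read between 6.94 and 10.73. None passed the test, 15 of the 18 were higher at 21 days (median 0.22), and the widest differences were 3.59 for Tf and 1.72 for Defb36. Their mean was 4.77 to 5.72 on the 21-day-old arrays and 4.57 to 4.71 on the 9-day-old arrays. On number 3 the Sertoli cell markers averaged 0.76 higher than on numbers 1 and 2 at 21 days and 0.05 higher at 9 days. At both ages 12 of the 18 were higher on number 3. The mean difference between the ages was 0.20 for number 1, 0.43 for number 2 and 1.03 for number 3. The 10 fibroblast markers, bright at a mean of 8.75 to 9.11 on the 21-day-old arrays and 8.94 to 9.10 on the 9-day-old arrays, had 3 higher at 21 days (median -0.14), and none passed. On number 3 they averaged -0.32 against numbers 1 and 2 at 21 days and 0.10 at 9 days. Of the 10, 4 were lower on number 3 at both ages, Dcn and Lum among them, and 4 were higher at both ages. Of the germ cell markers, 9 of 12 for spermatogonia and 15 of 19 for meiotic cells and spermatids lay below the array medians. In RNA from mixed cultures, fewer cells of a type and less RNA per cell cannot be told apart, and the part of these markers in the results was not tested.

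None of the 78 members passed the test between the ages. With limma's moderated test and Benjamini-Hochberg adjustment over all 14506 genes, 0 genes passed a threshold of 0.05 (0% of all genes), and the adjusted p was 1 for every member. At an unadjusted p under 0.05 stood 2 members (2.56%), Dnajb6, higher at 21 days, and Bag2, lower, against 2.97% of all genes. With the sample number as a block, 8 members (10.3%) stood there, against 7.73% of all genes and 10.9% of the 7253 genes of highest mean signal. The lowest adjusted p among members in that fit was 0.397, for Hspa12b.

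Differences among the members were small. They ran from -0.38 for Hspa12b to 0.33 for Dnajc12, which is 0.767 to 1.26 times the 9-day-old level, and the median member difference was -0.03, against -0.01 over all genes. The median standard error was 0.120. The median absolute difference was 0.075 for members and 0.076 over all genes. The 95% interval of the difference stayed within 2-fold either way for 75 members (96.2%). That share was 94.1% over all genes and 91.0% over the 7253 genes of highest mean signal. The exceptions among members were Hspb8, Dnajb4 and Hspa4l. These intervals, and the errors given below after ±, come from the fit without the sample number. For these 3 the standard errors there were 0.634, 0.383 and 0.396. With the number as a block they were 0.131, 0.130 and 0.138. Values did not overlap between the ages for 4 members (5.13%), against 5.72% of all genes: Bag2, Dnajc9 and Hspa13 were lower at 21 days and Dnajb6 was higher.

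Lower values at 21 days were more frequent than higher ones. The difference was above 0 for 25 members (32.1%), against 46.5% of all genes and 36.8% of the 7253 genes of highest mean signal. All 3 pairs of equal number were lower at 21 days for 18 members (23.1%), against 14.4% of all genes and 20.5% of the 7253 genes of highest mean signal. All 3 were higher for 5 members (6.41%), against 10.7% of all genes and 9.04% of those 7253. The members' median difference stood beside -0.04 for those 7253 genes.

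**Figure D1:**
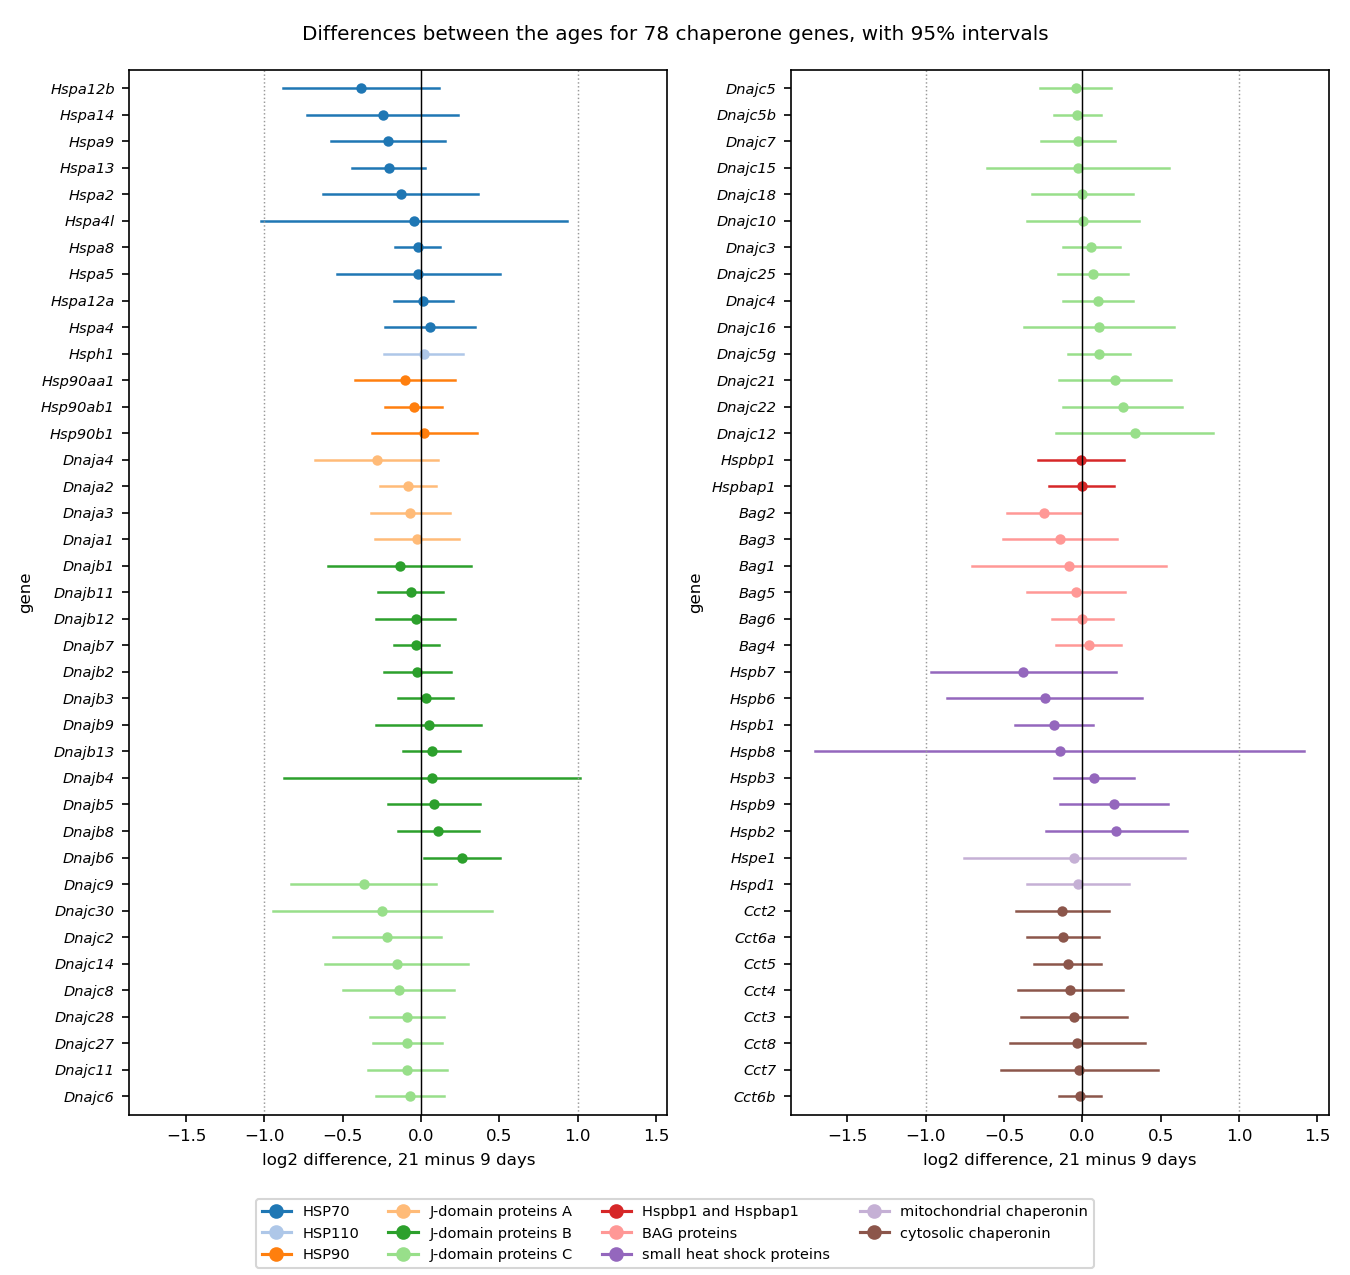
Difference in log2 signal, 21 days minus 9 days, of each of the 78 members, grouped by family, with points for members and bars for 95% intervals from limma. Differences lie between -0.38 and 0.33, most intervals cross 0, and all members of the cytosolic chaperonin lie below 0.

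The plot of differences by family shows that intervals are wide where arrays of 1 age spread and narrow where they agree closely, as for Hspa8. By family the median difference was lowest in the 7 small heat shock proteins, at -0.14, and highest in the 12 J-domain proteins of type B, at 0.04. The lowest median is the value of Hspb8, whose standard error was 0.634. Without both arrays numbered 3 the 2 medians were -0.02 and 0.03, and that of the 4 J-domain proteins of type A was -0.09.

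HSP70 proteins form the core of the system, and of the 10 measured 2 had a higher and 8 a lower mean at 21 days (median difference -0.09). Hspa8, the constitutive cytosolic HSP70, was the brightest member, with 12.15, 12.16 and 12.18 on the 21-day-old arrays and 12.13, 12.20 and 12.22 on the 9-day-old arrays. Its values overlapped within 0.1, and the difference of -0.02 ± 0.06 (SE, n = 3 each) had a 95% interval of -0.17 to 0.12. Its 8 probe sets gave differences of -0.06 to -0.01.

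Hspa5 (BiP) read 10.69, 10.33 and 11.05 on the 21-day-old arrays and 10.48, 10.69 and 10.94 on the 9-day-old arrays. Number 3 was the highest at each age and the ages overlapped, with a difference of -0.02 ± 0.21. Hspa9, mortalin, the HSP70 of mitochondria, read 9.72, 9.31 and 9.58 at 21 days and 9.92, 9.53 and 9.81 at 9 days. Each 21-day-old array lay below the 9-day-old array of its number, while the groups overlapped, and the difference was -0.21 ± 0.15. Its adjusted p did not pass with the number as a block either.

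Hspa12b, an atypical relative of HSP70 known from endothelium, showed the widest difference among the members. It had 4.39, 4.67 and 4.02 at 21 days and 4.71, 5.001 and 4.51 at 9 days, a difference of -0.38 ± 0.20. Number 2 was the highest and number 3 the lowest at both ages, and each pair was lower at 21 days. Hspa13, a microsomal HSP70, read 7.36, 7.04 and 7.22 against 7.41, 7.41 and 7.42, so that all 21-day-old arrays lay below the 9-day-old ones, by -0.21 ± 0.09.

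Hspa14, which works with Dnajc2 on ribosomes, read 5.46, 5.50 and 4.83 at 21 days and 5.46, 5.63 and 5.42 at 9 days, a difference of -0.24 ± 0.20. Without the low 21-day-old number 3 it was -0.03. Hspa2, the HSP70 that mouse spermatocytes need for meiosis, read 3.71, 3.44 and 3.93 at 21 days and 3.71, 3.57 and 4.18 at 9 days. These values lie close to the array medians and overlap, with a difference of -0.13 ± 0.20. Hsph1, an HSP110 exchange factor, read 6.32, 6.25 and 6.33 against 6.32, 6.44 and 6.09, a difference of 0.02 ± 0.10.

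HSP90 genes were bright and close between the ages. Hsp90aa1, the inducible cytosolic form, read 10.17, 9.76 and 10.00 on the 21-day-old arrays and 10.19, 9.94 and 10.10 on the 9-day-old arrays (-0.10 ± 0.13). Hsp90ab1, the constitutive form, read 11.45, 11.45 and 11.37 against 11.46, 11.58 and 11.38 (-0.05 ± 0.07). Within each number the 21-day-old array read lower than its partner for both genes, in some pairs by very little. The pair difference was -0.001 for number 1 and -0.010 for number 3 of Hsp90ab1, and -0.014 for number 1 of Hsp90aa1. Hsp90b1 read 10.57, 10.58 and 10.71 at 21 days and 10.37, 10.56 and 10.86 at 9 days (0.02 ± 0.14), with number 3 highest at both ages.

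J-domain proteins choose the clients of HSP70 and make up 39 of the members. The 4 of type A were all lower at 21 days with a median of -0.08, type B had 7 of 12 higher, and type C had 9 of 23 higher with a median of -0.03. Dnaja1, a partner of cytosolic HSP70, read 9.21, 8.83 and 9.07 at 21 days and 9.10, 9.08 and 9.00 at 9 days (-0.03 ± 0.11). Dnaja2 read 8.46, 8.29 and 8.41 against 8.53, 8.44 and 8.44 (-0.08 ± 0.07). Both pairs of groups overlapped.

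Dnaja4 read 5.19, 4.80 and 4.80 at 21 days and 4.99, 5.43 and 5.22 at 9 days (-0.28 ± 0.16), where only the 21-day-old number 1 reached into the 9-day-old range. Dnajb1 (HSP40), induced by heat with HSP70, read 7.57, 7.70 and 7.04 against 7.45, 7.69 and 7.57 (-0.14 ± 0.19). Here the 21-day-old number 3 lay far below the other 5 arrays, and without both arrays numbered 3 the difference was 0.06.

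Dnajb6, which keeps polyglutamine proteins from aggregating, was the member highest at 21 days relative to its error. It read 7.004, 7.31 and 7.07 on the 21-day-old arrays and 6.82, 6.84 and 6.93 on the 9-day-old arrays, with no overlap. The difference was 0.26 ± 0.10, with a 95% interval of 0.02 to 0.51 before adjustment.

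Dnajc9, a co-chaperone that handles histones, read 5.975, 5.85 and 5.29 at 21 days and 6.16, 6.07 and 5.984 at 9 days (-0.37 ± 0.19). Its groups did not overlap, although the 21-day-old number 1 and the 9-day-old number 3 were within 0.1 of each other. Dnajc12, a co-chaperone of aromatic amino acid hydroxylases, read 5.75, 6.25 and 5.75 at 21 days and 5.76, 5.74 and 5.25 at 9 days (0.33 ± 0.20). Its difference came from numbers 2 and 3, as both arrays numbered 1 read nearly the same.

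BAG proteins release clients from HSP70, and 2 of the 6 were higher at 21 days. Bag2, which also restrains the ubiquitin ligase CHIP, read 7.62, 7.74 and 7.80 on the 21-day-old arrays and 7.81, 8.02 and 8.07 on the 9-day-old arrays. All 21-day-old values lay below all 9-day-old values, the closest by less than 0.1, and the difference was -0.25 ± 0.10. Bag3, which pairs with Hspb8 in selective autophagy, read 7.21, 7.35 and 6.93 at 21 days and 7.28, 7.51 and 7.13 at 9 days (-0.14 ± 0.15), each pair lower at 21 days and the groups overlapping. Hspbp1, an exchange factor of HSP70, read 6.58, 6.88 and 6.61 against 6.69, 6.83 and 6.58 (-0.01 ± 0.11), and Hspbap1, a partner of Hspb1, differed by -0.01 ± 0.08.

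Small heat shock proteins had 3 of 7 members higher. Hspb1 (HSP27), which also protects actin filaments, read 7.97, 7.74 and 7.86 at 21 days and 7.95, 7.96 and 8.20 at 9 days (-0.18 ± 0.10). Hspb6 (HSP20), abundant in smooth muscle, read 6.73, 6.30 and 6.88 against 6.65, 6.63 and 7.37 (-0.24 ± 0.25), with number 3 highest at both ages. Hspb7, a cardiovascular form, read 4.31, 3.69 and 3.97 at 21 days and 4.01, 4.76 and 4.34 at 9 days (-0.38 ± 0.24). In all 3 genes the ages overlapped. The 3 higher members, named after their values were seen, were Hspb2 (0.22 ± 0.18), Hspb9 (0.20 ± 0.14) and Hspb3 (0.07 ± 0.10). Hspb2 was higher at 21 days in all 3 pairs, and Hspb9 and Hspb3 averaged below the array medians. The 11 smooth muscle and peritubular cell markers, none of which passed the test, were all lower at 21 days with a median of -0.35. Their mean signal was 6.81 to 8.52 on the 21-day-old arrays and 7.43 to 8.79 on the 9-day-old arrays. Any link between these markers and the small heat shock proteins was not tested.

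**Figure D2:**
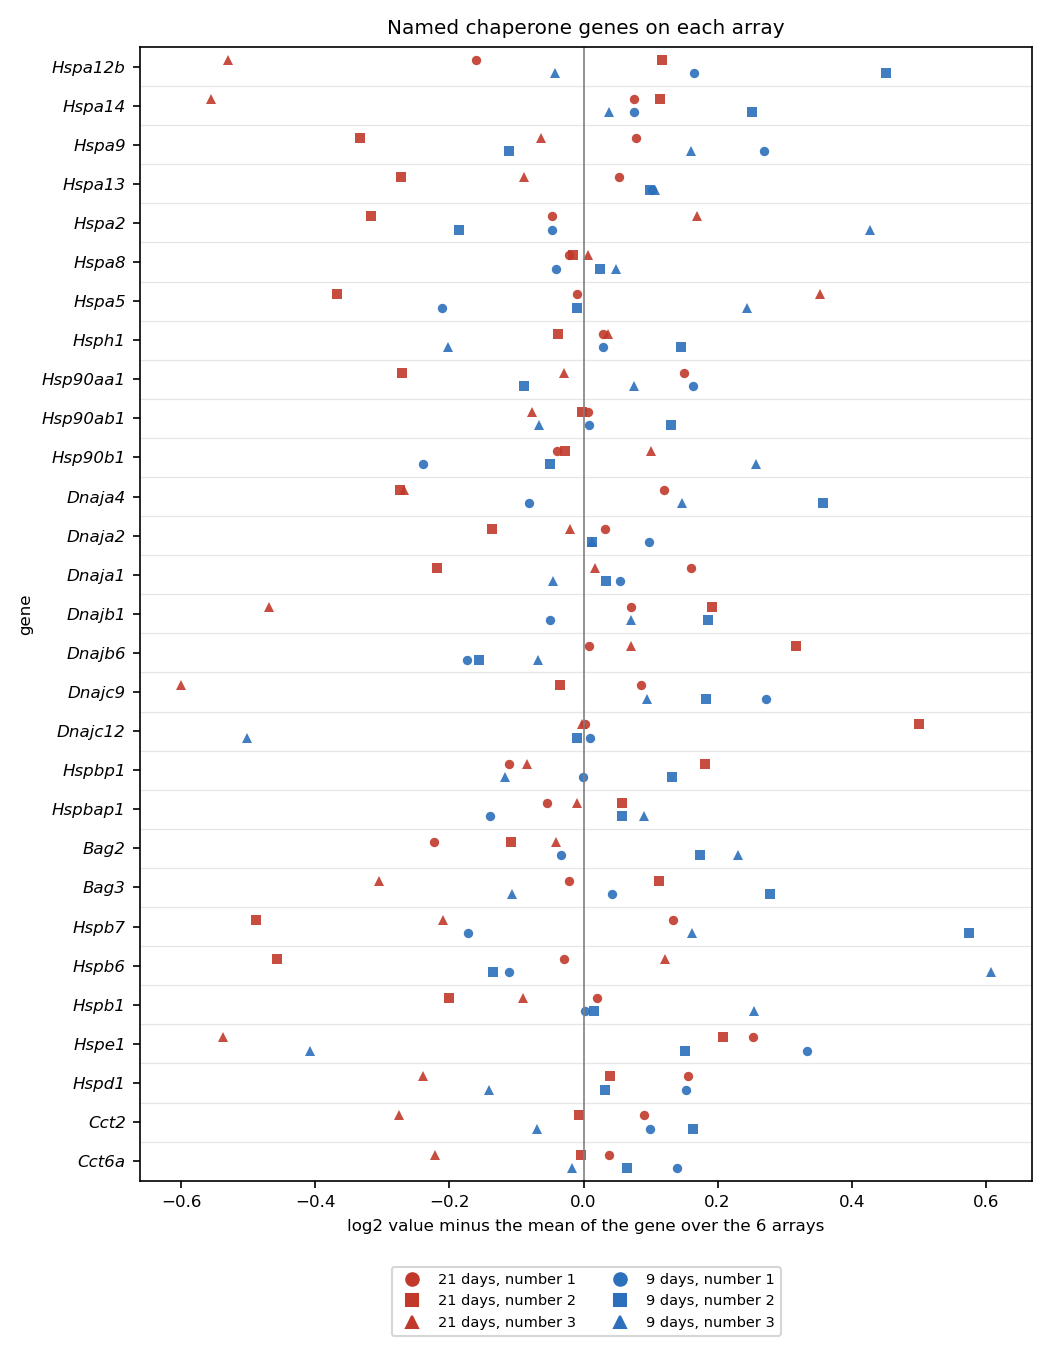
Log2 signal of the named members on every array, minus each member's mean over all arrays, with markers for the sample numbers. Each member has its 21-day-old arrays drawn in a row above its 9-day-old arrays, and higher signal lies to the right. Levels of a member at the 2 ages mostly overlap, and Dnajb6, Bag2, Dnajc9 and Hspa13 are the 4 without overlap.

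Chaperonins were close between the ages. All 8 measured subunits of the cytosolic ring were lower at 21 days, by 0.13 or less, with a median of -0.07. This ring folds actin and tubulin. All 3 pairs were lower for 4 of the 8, and without both arrays numbered 3 the difference was 0.01 for Cct3 and 0.05 for Cct7. Removing some single array also made Cct3, Cct4, Cct7 and Cct8 higher, at most by 0.08, 0.04, 0.17 and 0.15. Cct2 read 10.20, 10.11 and 9.84 on the 21-day-old arrays and 10.21, 10.28 and 10.04 on the 9-day-old arrays (-0.13 ± 0.12). Cct6a read 7.87, 7.83 and 7.61 against 7.97, 7.90 and 7.82 (-0.12 ± 0.09). Each pair was lower at 21 days, while the groups overlapped. Cct6b, the testis form, stayed near 2.25, among the lowest signals of the members. Its value was equal on every array except the 21-day-old number 2, at 2.21. Tcp1, the remaining subunit of the ring and not a member by its symbol, read 9.45, 9.26 and 9.19 at 21 days and 9.54, 9.61 and 9.39 at 9 days (-0.22 ± 0.10).

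Signals of the mitochondrial chaperonin varied more with the number than with age. Hspd1 (HSP60) read 9.26, 9.14 and 8.86 at 21 days and 9.26, 9.13 and 8.96 at 9 days (-0.03 ± 0.13). Hspe1 (HSP10) read 9.25, 9.20 and 8.46 against 9.33, 9.15 and 8.59 (-0.05 ± 0.29). Number 3 was the lowest for both genes of the shared promoter at both ages. Its difference from the mean of numbers 1 and 2 was -0.34 at 21 days and -0.23 at 9 days for Hspd1, and for Hspe1 it was -0.77 at 21 days and -0.65 at 9 days.

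Grouped by place in the cell, the 12 measured cytosolic members listed as heat-inducible had 3 higher at 21 days and 9 lower (median -0.05). That list also holds the constitutive Hspa8 and Hsp90ab1, and its Hspa1a and Hspa1b were not analysed. The 12 of the endoplasmic reticulum had 7 higher and a median of 0.01. Among the 9 of mitochondria 1 was higher, with a median of -0.07. Of the 9 germ cell members 7 lay below the array medians and 5 were higher, with a median of 0.03, and the 8 muscle members had 3 higher and a median of -0.14. The synaptic and vesicle list includes Gak, not a member by its symbol. All 4 measured genes of that list were lower (median -0.06). None of the genes in these groups passed the test.

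**Figure D3:**
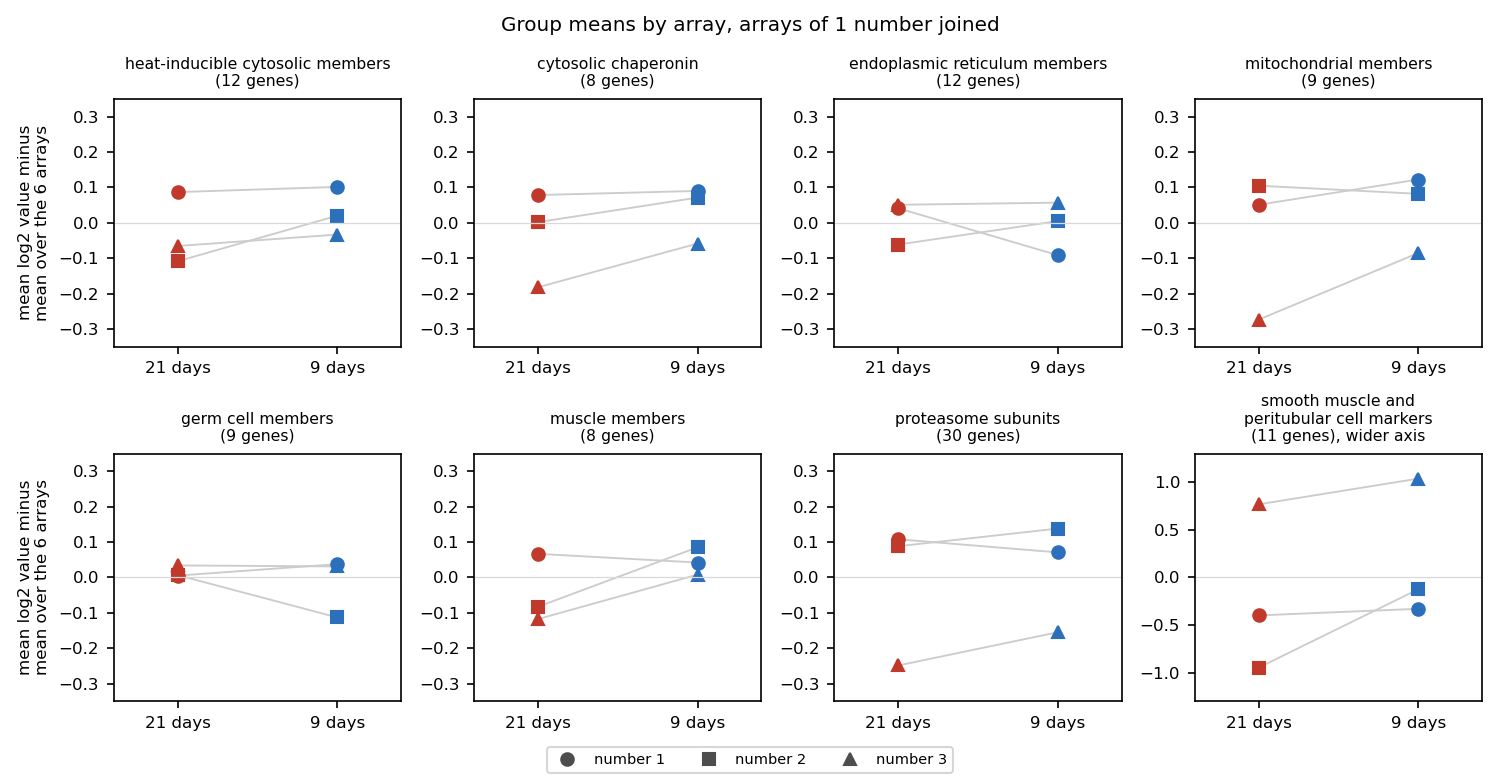
Mean log2 signal of each group per array, minus its mean over the 6 arrays, with 21 days left of 9 days and arrays of 1 number joined. Number 3 lies below the others at both ages for the cytosolic chaperonin, mitochondrial members and proteasome subunits, and above them for smooth muscle markers, whose axis is wider.

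For most members number 3 differed from numbers 1 and 2 by more than the ages differed, as for most genes on the array. Numbers 1 and 2 were not set against the others in this way. The mean difference of number 3 from numbers 1 and 2 was larger in size than the age difference for 54 members (69.2%), against 63.1% of all genes and 72.6% of the 7253 genes of highest mean signal. Number 3 was lower than the others at both ages for 34 members (43.6%), against 32.3% of all genes and 42.6% of those 7253, so the members' share is near that of genes of high signal. Number 3 was higher at both ages for 22 members (28.2%), against 33.7% of all genes and 35.7% of those 7253.

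The members named next were chosen after their values were seen. Hspb8 (HSP22), the partner of Bag3, read 6.04, 5.75 and 4.06 on the 21-day-old arrays and 6.04, 5.69 and 4.56 on the 9-day-old arrays. Its number 3 differed from numbers 1 and 2 by -1.83 at 21 days and -1.31 at 9 days, while the age difference was -0.14 ± 0.63. Dnajb4 read 8.48, 8.29 and 9.57 against 8.57, 8.40 and 9.15, number 3 being higher by 1.18 at 21 days and by 0.66 at 9 days. Bag1, an exchange factor and partner of Bcl2, differed on number 3 by -0.69 at 21 days and -0.53 at 9 days.

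**Figure D4:**
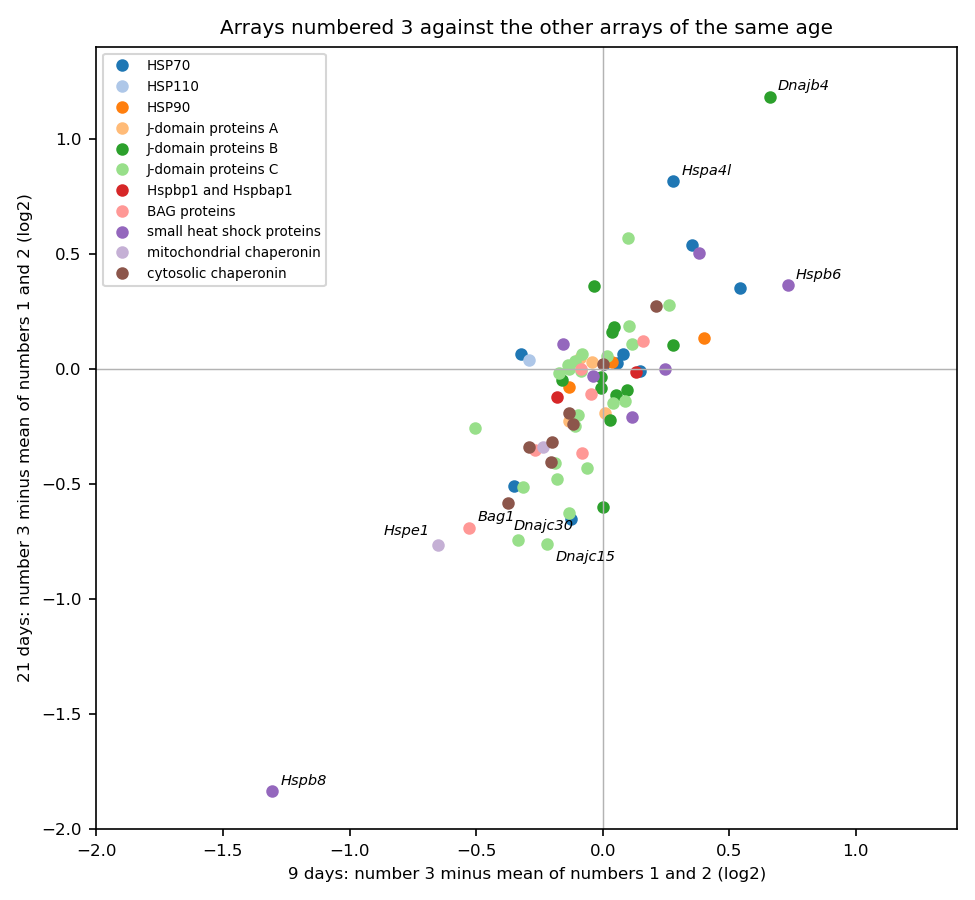
Log2 signal of number 3 minus the mean of numbers 1 and 2, at 21 days on the vertical axis and at 9 days on the horizontal axis, 1 point per member, coloured by family. Hspb8 lies lowest at both ages, Hspe1 and Bag1 are low at both, and Dnajb4 is the highest at 21 days.

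The plot of number 3 against the other arrays shows members far from 0 on the same side at both ages. On number 3 the mean of the cytosolic chaperonin differed by -0.22 at 21 days and -0.14 at 9 days. For mitochondrial members these values were -0.35 at 21 days and -0.19 at 9 days, and for 30 proteasome subunits -0.35 at 21 days and -0.26 at 9 days. Without both arrays numbered 3 no member passed the test and the median member difference was -0.04. The ages then did not overlap for 16 members (20.5%), against 24.5% of all genes, with 2 arrays of each age left.

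Other genes of the folding network were counted in lists that were drawn up knowing earlier results of these data, and 0 of their members passed. Of 5 measured heat shock factors and regulators, 3 were higher at 21 days (median 0.04). Hsf1, the master regulator of the heat shock response, read 6.35, 6.12 and 6.54 at 21 days and 6.21, 6.38 and 6.44 at 9 days, and its groups overlapped. Hsf2 differed by -0.24 ± 0.19 and Hsf4 by 0.16 ± 0.10.

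Co-chaperones outside the family names had 9 of 25 higher (median -0.06), among them Fkbp5, an HSP90 partner of steroid receptors, at 0.22 ± 0.15, and, on the lower side, Ppid at -0.21 ± 0.24. Prefoldin and chaperonin partners, Tcp1 included, had 5 of 15 higher (median -0.03), and Pfdn5, a prefoldin subunit, differed by -0.14 ± 0.20. Folding enzymes and chaperones of the endoplasmic reticulum had 13 of 31 higher (median -0.03), with Pdia5, a disulphide isomerase, at -0.38 ± 0.22 and Selenos at 0.24 ± 0.15. These lists lie near the median of the 7253 genes of highest mean signal.

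Regulators of the unfolded protein response had the lowest median of these lists, -0.13, with 2 of 16 higher (12.5%). The share of higher genes was 46.5% over all genes and 36.8% over the 7253 genes of highest mean signal. Number 3 was higher than numbers 1 and 2 at both ages for 11 of the 16, against 35.7% of those 7253. Without both arrays numbered 3 the median of this list was -0.10. Trib3, a pseudokinase induced by Atf4 and Ddit3, read 6.004, 5.52 and 5.57 at 21 days and 6.27, 5.58 and 6.47 at 9 days (-0.41 ± 0.26). Asns, asparagine synthetase, read 8.60, 8.21 and 8.78 against 8.90, 8.56 and 9.04 (-0.30 ± 0.19). Each pair was lower at 21 days for both genes, and the groups overlapped. Mitochondrial chaperones and proteases had 6 of 14 higher (median -0.06), with Bcs1l at -0.33 ± 0.22 and the protease Lonp1 at -0.24 ± 0.17. Proteasome subunits had 4 of 30 higher (median -0.04), with Psmd8 at 0.19 ± 0.13 and Psmd4 at -0.12 ± 0.16.

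Set beside the promoters shown above, members with the longer heat shock element differed little between the ages. Their differences ran from -0.08 to 0.02 with a median of -0.03 and 1 of 6 higher, while the other 59 members with a promoter window had a median of -0.04 and 18 higher. The 3 members with the ER stress element differed by -0.02 (Hspa5), 0.02 (Hsp90b1) and 0.06 (Dnajc3).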

How the data were processed

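Total RNA from 6 primary cultures was hybridised to Affymetrix arrays, 3 per age. Samples were grouped by their titles. The deposited values are log2 signals that the authors made with RMA, per the submitters' processing notes; its version is not given in the sources used here. RMA removes background, equalises array distributions and summarises probes. Equal values on 2 or more arrays occurred for 23 members (29.5%) and 37.8% of all genes. The series type names binding by array, but the labels describe expression.

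Of 29214 probe sets, 15310 name 1 gene in GEO's platform annotation, 323 several and 13581 none. The probe set of highest mean was kept per gene. Detection calls and scan dates were not used, so the detection limit and batches are unknown.

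Ages were compared with limma 3.58.1 (R 4.3.3; lmFit and eBayes, no covariate), adjusted by Benjamini-Hochberg over 14506 genes, after checks on simulated data. The number of arrays limits the precision. Between arrays of equal number, deviations from age means correlated at 0.439, 0.549 and 0.673 across genes, over the limit of 0.1. The deviations of an age cancel out over its arrays. The correlations are therefore not independent and cannot show that every number pairs across the ages. A fit with the number as a block was therefore an alternative, beside filters, probe set choice, centring, quantile normalization, priors, array weights and leaving out arrays.

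Members and lists were chosen with earlier results of these data known. Named members were 17 set genes (3 of them not analysed), the 2 with the widest difference per family, the 6 of lowest p, and the 3 of lowest p with the block; in each list, the 2 with the widest difference. Summaries and figures used Python 3.11.15, pandas 2.3.3 and matplotlib 3.10.9. Promoters came from RefSeq, build GRCr8.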

Additional observations from a re-analysis of the deposited data

How the results depend on the processing

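No member and no gene passed under any of the 16 alternatives, and the lowest adjusted p of a member was 0.397, with the replicate block. Members at an unadjusted p under 0.05 numbered 2 (2.56%, against 2.97% of all genes). They numbered 8 with the replicate block (10.3%, against 7.73% of all genes). They numbered 1 with the upper 75% of genes by mean (1.39% against 2.9%) and with arrays centred on their medians (1.28% against 3.14%). Quantile normalization also gave 1 (1.28% against 2.9%), as did leaving out both arrays numbered 3 (1.28% against 3.48%). With the upper 50% of genes they numbered 0 (2.61% of all genes), as with a trended robust prior (2.94%). Leaving out 1 array gave 0 to 4 members, and 2.1% to 4.33% of all genes. Members without overlap numbered 4 (5.13%, against 5.72% of all genes). When 1 array was left out they numbered 7 to 13 (8.97% to 16.7%, against 12.2% to 16.4% of all genes), and 16 without both arrays numbered 3 (20.5% against 24.5%). The median member difference ran from -0.077 (without 21-day-old number 1) to -0.012 (without 21-day-old number 3). Some differences near 0 turned sign. With array weights these were Dnaja1 (0.0073), Hspa5 (0.0077) and Hsph1 (-0.0028); with median centring Hsp90b1 (-0.0039) and Hsph1 (-0.0076); with quantile normalization Hspa5 (0.00064) and Hspbp1 (0.032). Without both arrays numbered 3 they were Dnajb1 (0.064), Hspbap1 (0.043), Hspd1 (0.0062) and Hsph1 (-0.092). The cause was not tested. Leaving out 1 array turned 13 named members: Dnaja1 (-0.11 to 0.075), Dnajb1 (-0.27 to 0.063), Hsp90aa1 (-0.20 to 0.010), Hsp90ab1 (-0.093 to 0.0051), Hsp90b1 (-0.093 to 0.16), Hspa2 (-0.26 to 0.051), Hspa5 (-0.20 to 0.16), Hspb6 (-0.37 to 0.0020), Hspbap1 (-0.076 to 0.039), Hspbp1 (-0.10 to 0.054), Hspd1 (-0.11 to 0.084), Hspe1 (-0.27 to 0.20) and Hsph1 (-0.079 to 0.095). For 28 of the 29 named members, some single array, once removed, cut the difference by more than 1.5 times or turned its sign.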
